A study of Rattus norvegicus with 13 samples.

Results

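The genes described here are 44 regulators and enzymes of the cell cycle and of DNA replication, taken by name from a list. They cover G1 cyclins, inhibitors of cyclin-dependent kinases (CDKs), the replicative helicase and fork, nucleotide supply, and the kinases, cyclins, checkpoint proteins and motors of mitosis. The list was chosen with earlier results of these data known. Of the 44 genes, 43 were measured among the 14217 genes of a rat microarray. The chromatin protein gene Hmgb2 was left out because its probe set names several genes. Where a gene had several probe sets, the brightest one on average over the 13 arrays stands for it, on the log2 scale of the deposited values, and a probe set is only ever compared with itself.

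The study profiled rat intrahepatic cholangiocarcinoma, a cancer of the bile ducts inside the liver, beside tumour cell lines grown in a model of its stroma. Tumours 1 to 4 came from young adult male Fischer 344 rats and had grown from BDEsp cells, a spontaneously transformed derivative of the rat cholangiocyte line BDE1. The epithelial group (3 arrays) was the tumour-derived cholangiocarcinoma line, clone H10, and the fibroblastic group (4 arrays) was clone E4, a tumour-derived line of cancer-associated fibroblastic cells that carry alpha smooth muscle actin. Each line is 1 clone of Fischer 344 background, and both were grown alone in gels made of type I collagen from rat tail. Of the co-cultures of both lines there were 2 arrays, 1 labelled for its epithelial cells and 1 for its fibroblastic cells. For co-culture, epithelial cells were plated at a fixed density and fibroblastic cells at several; the density behind these arrays, and any step that parted the cells again, is not stated in the labels. Nothing in the sources says whether the arrays of a line came from separate cultures, and the p-values therefore reflect array-to-array spread alone, which may be technical.

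As background, a cell enters the cycle when cyclins of the D and E types activate CDKs, which inactivate the retinoblastoma protein and free E2F factors to switch on the genes of DNA synthesis. The MCM helicase then opens replication origins, and mitosis is driven by Cdk1 with cyclins A and B. Inhibitors such as p21 (Cdkn1a) and the products of the neighbouring genes Cdkn2a and Cdkn2b block these kinases, and the Cdkn2a locus is a common site of loss in cancer. Transcripts of mitotic genes peak late in the cycle, so in bulk RNA their level depends on how many cells are cycling and on how much of each transcript a cycling cell holds, and these cannot be told apart.

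**Figure D1:**
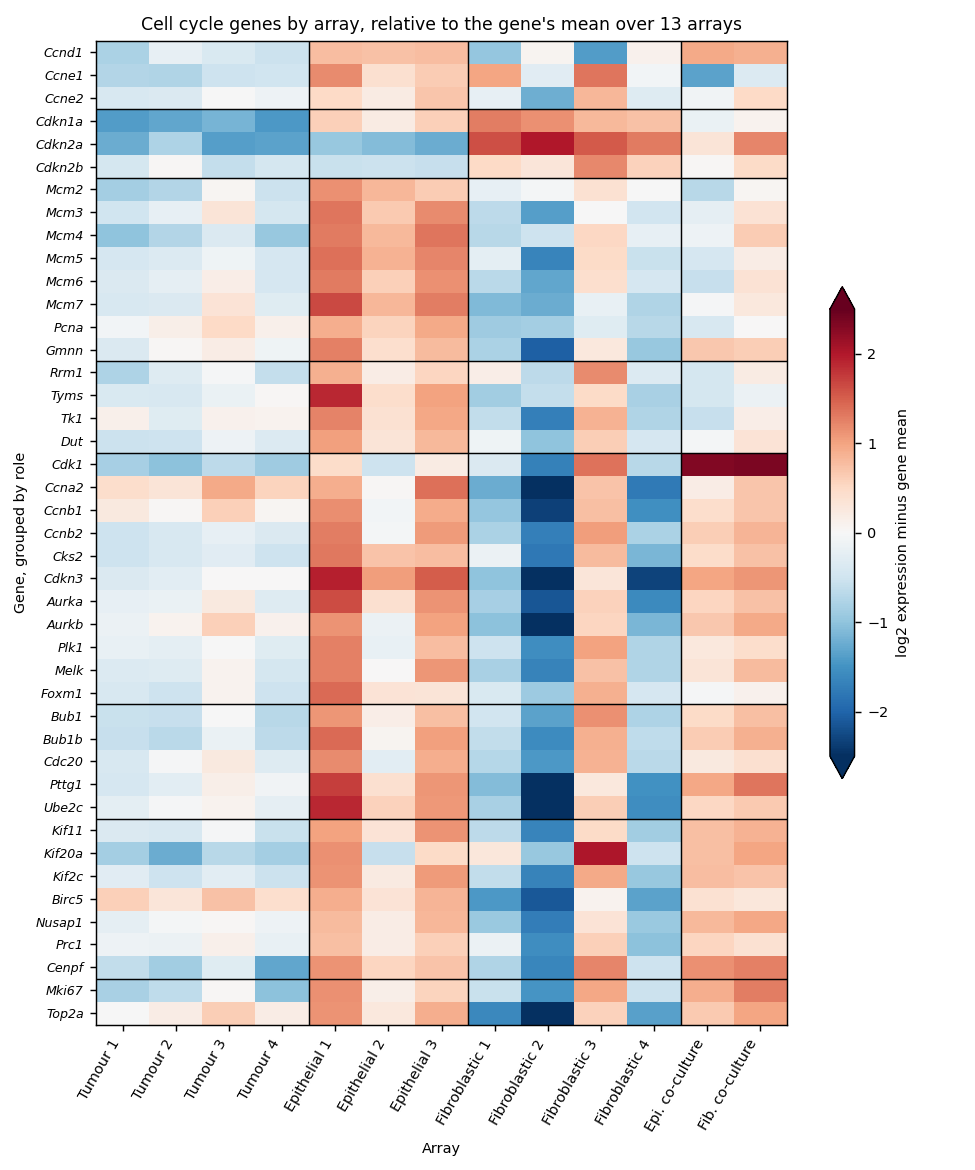
The heat map shows each of the 43 genes (rows, grouped by role) on each of the 13 arrays (columns) as log2 expression minus the mean of the gene over all arrays, red above and blue below it. The fibroblastic arrays are the most uneven group, with array 2 blue and array 3 red over most of the mitotic genes, and Cdk1 is red on both co-culture arrays.

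Some arrays stood apart or did not match a label read as a single cell type, and the results below are given with that in view. Both co-culture arrays held markers of both lines. A list of 10 epithelial markers (Krt19, Cdh1 and Epcam among them) averaged 11.84 and 11.64 there, near the 12.03 to 12.60 of the epithelial line and far above the 4.50 to 5.03 of the fibroblastic line. A list of 12 fibroblastic markers averaged 9.96 and 10.21 on the same arrays, against 5.24 to 5.34 in the epithelial and 11.44 to 11.66 in the fibroblastic line. The 2 co-culture arrays correlated with each other over all genes at r = 0.983, but with the arrays of their own line only at 0.883 to 0.902 (epithelial) and 0.881 to 0.897 (fibroblastic). The fibroblastic arrays fell into pairs, arrays 1 and 3 (r = 0.987) and arrays 2 and 4 (r = 0.99), with 0.947 to 0.961 across the pairs. Arrays 1 and 3 had the higher Acta2 (12.13 and 12.04, against 9.29 and 10.29), and arrays 2 and 4 the higher Dcn (6.84 and 6.53, against 4.34 and 4.26). Tagln went with Acta2 (14.36 and 14.20, against 11.91 and 12.97). Thy1 was also higher on arrays 1 and 3 (11.43 and 11.41, against 10.23 and 10.39), and Col1a1 slightly so (13.93 and 13.96, against 13.43 and 13.53). Pdgfrb (11.25 and 10.77, against 10.23 and 10.16) and Lum (4.68 and 5.34, against 3.57 and 3.52) were higher on arrays 2 and 4. Col1a2, Col3a1 (13.86 to 14.04), Postn, Fn1 and Vim differed little between the pairs. In the tumours a list of 8 hepatocyte genes averaged 13.73, 5.84, 12.33 and 13.76, near the 4.75 to 5.38 of the cultures only in tumour 2. The epithelial list averaged 11.58 to 12.17 in the tumours and the fibroblastic list 11.11 to 11.49. Macrophage, lymphocyte and endothelial markers were higher on average in tumours than in culture. Macrophage genes averaged 9.51 to 9.84 against 5.09 to 5.79, and lymphocyte genes 6.79 to 7.21 against 4.40 to 4.90. The 4 measured of 5 endothelial genes averaged 6.68 to 8.10 against 4.17 to 4.63. Single genes differed: the lymphocyte gene Cd79b read 5.62 to 5.64 in tumours and 5.24 to 5.78 in culture. The macrophage gene Cd14 read 11.23 to 11.83 in tumours, but also 11.34 on epithelial array 3 and 11.49 on the epithelial co-culture array. The lines grown alone were high on average for their own marker list and low for the other, but not for each gene. Dcn and Lum, matrix genes of fibroblasts, were near the level of the epithelial line on fibroblastic arrays 1 and 3 (4.34 and 4.26 for Dcn, 3.57 and 3.52 for Lum). The epithelial keratin gene Krt7 read 8.99 and 8.23 on those same arrays, against 5.40 and 4.65 on arrays 2 and 4. In the epithelial line Vim read 7.43 to 8.15 and Acta2 6.37, 6.45 and 7.90. Acta2, the gene of alpha smooth muscle actin, read 7.56 and 9.06 on the co-culture arrays, below every array of the fibroblastic line.

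Within the fibroblastic line the cell cycle genes varied more than in any other group. The median SD of the 43 genes over the 4 fibroblastic arrays was 0.949, against 0.242 over all genes, and 35 of the 43 had an SD above the 90th percentile of all genes. In the epithelial line the median SD was 0.425 (0.231 over all genes), and in the tumours 0.235 (0.176 over all genes). Fibroblastic array 3 was the highest of its group for 40 of the 43 genes, where 23.9% of all genes were highest on it. Array 2 was the lowest for 36, where 30.3% of all genes were lowest on it. The median gene was 2.29 higher on array 3 than on array 2, and for 26 of the 43 genes the arrays followed a single order, 2 below 4 below 1 below 3, an order that 9.0% of all genes followed.

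The size of this spread differed between genes. Cyclin A2 (Ccna2), which carries CDK activity through S phase and into mitosis, had log2 expression of 7.78, 5.88, 9.73 and 7.25 on fibroblastic arrays 1 to 4, a range of 3.84. Cdkn3, a phosphatase that acts on CDKs, read 9.42, 7.49, 10.74 and 8.11, and the ubiquitin-conjugating enzyme of the anaphase-promoting complex, Ube2c, read 9.61, 7.86, 11.02 and 8.86. These mitotic genes were lowest on array 2 and highest on array 3, by more than 3 on the log2 scale. Among the 8 helicase and fork genes the range over the fibroblastic arrays ran from 0.58 for Mcm2 (8.88, 9.03, 9.46 and 9.07) and 0.59 for Pcna to 2.13 for Mcm5 and 2.30 for Gmnn, so that it overlapped with that of mitotic genes such as Foxm1 (1.82) and Nusap1 (2.07). Cyclin D1 (Ccnd1), which starts the cycle in response to growth signals, ran the other way, at 11.11, 12.16, 10.68 and 12.19: it was lowest on array 3, where the mitotic genes were highest. Cdkn1a (11.68, 11.54, 11.22 and 11.14) and Cdkn2a (7.45, 7.83, 7.37 and 7.14) had no part in the order either, and both were lowest on array 4. Cdkn2b, the third CDK inhibitor, read 6.94, 6.74, 7.63 and 7.01, lowest on array 2 and highest on array 3 as the mitotic genes were.

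A sign of RNA quality moved with this order. The difference between the 3' and 5' control probe sets of actin, which grows as RNA is degraded or copied short, was 1.716, 2.648, 1.045 and 2.007 on fibroblastic arrays 1 to 4, exactly the reverse of the order of the mean over the 43 genes (8.37, 7.52, 9.54 and 8.17). In the epithelial line it was 1.203, 1.469 and 0.856, and array 2, with the largest value, had the lowest mean (9.97, 9.13 and 9.69). The same control read 0.606 to 0.752 in the tumours and 0.962 and 0.848 on the co-culture arrays. The GAPDH control differed less (0.151, 0.270, -0.038 and 0.146 on the fibroblastic arrays), and its order there was close to but not the same as that of actin. With the actin difference as a covariate, the median of the 43 differences between the lines went from 1.38 to 0.42. This covariate was chosen after seeing the data. Apart from array 3, it was higher on the fibroblastic arrays than on any epithelial array, so the fit cannot fully part it from the difference between the lines. The part of RNA quality in the spread was not tested further.

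**Figure D2:**
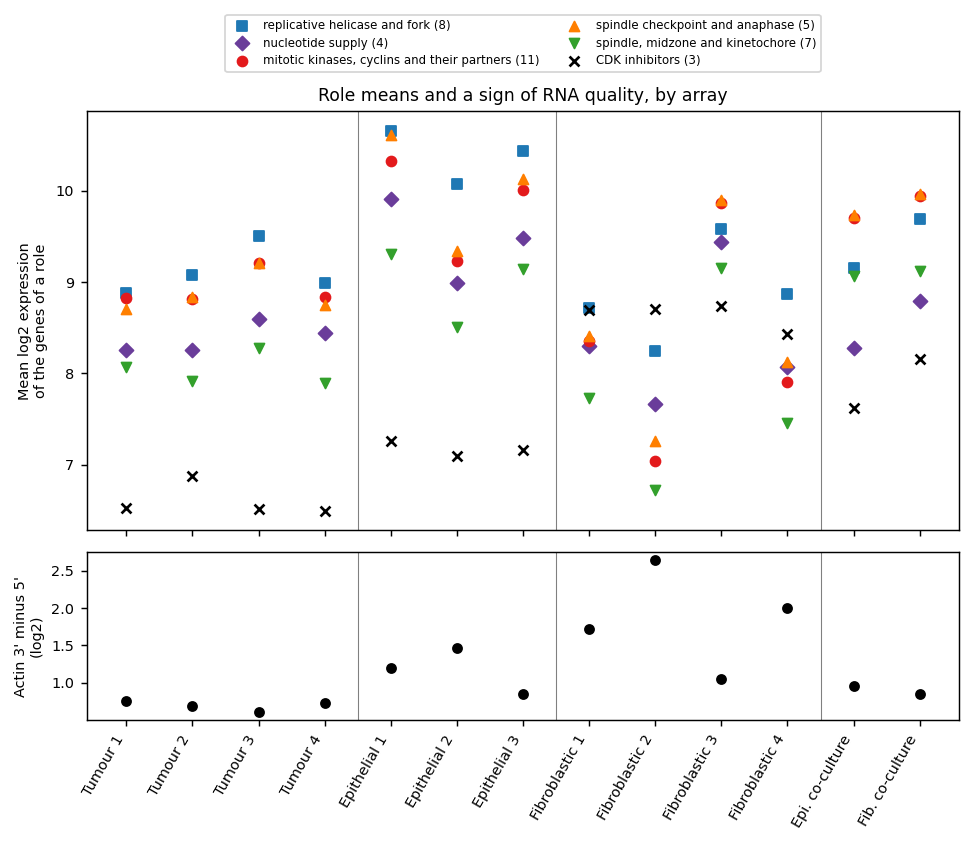
The upper panel plots the mean log2 expression of the genes of each role on each array (number of genes in brackets), and the lower panel the actin 3' minus 5' difference in log2 units; means of different roles are not comparable in height, only across arrays. On the fibroblastic arrays the mitotic roles swing between a low on array 2 and a high on array 3 while the actin difference swings the other way, and the mean of the 3 CDK inhibitors, which averages genes that go different ways, lies between 8.43 and 8.74.

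Since the mitotic genes moved together across the fibroblastic arrays, their promoters are shown for what letters they share. RefSeq (build GRCr8) promoter windows of 300 bases, 250 before and 50 after the annotated start, were matched by symbol for 36 of the 43 genes in 39 windows; Ccna2, Foxm1, Ube2c, Ccnd1, Aurkb, Ccne2 and Mcm4 were not matched. On both strands the windows were searched for the cell cycle homology region (CHR) as TTTGAA or TTCGAA, for the CCAAT box as CCAAT, and for an E2F site as GCGGGAA; each motif was counted on its own, whether or not it overlapped another, and TTCGAA reads the same on either strand. As background, a CHR with CCAAT boxes is the layout known from promoters of mitotic genes, and E2F sites that from promoters of replication genes. A CHR was found in 15 of the 23 windows of mitotic genes (65.2%) and a CHR together with a CCAAT box in 14 (60.9%), against 14.3% and 5.8% of the windows of all measured genes. In the 12 windows of replication and nucleotide genes the counts were 4 (33.3%) and 2 (16.7%). The E2F letters were found in 4 of the 12 windows of replication and nucleotide genes (33.3%) and in 0 of the 23 of mitotic genes, against 7.2% of the windows of all measured genes. The 6 windows below are printed 5' to 3' with every match in capitals: 3 mitotic genes, 2 helicase subunits and, for contrast, Cdkn1a, which did not follow the mitotic genes and whose window holds none of these letters.
Cdk1: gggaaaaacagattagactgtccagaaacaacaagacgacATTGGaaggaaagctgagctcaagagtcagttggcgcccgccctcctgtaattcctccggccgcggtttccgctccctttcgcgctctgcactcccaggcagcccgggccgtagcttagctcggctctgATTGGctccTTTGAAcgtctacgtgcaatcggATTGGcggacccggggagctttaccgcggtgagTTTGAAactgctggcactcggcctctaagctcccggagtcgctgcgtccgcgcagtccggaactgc
Ccnb2: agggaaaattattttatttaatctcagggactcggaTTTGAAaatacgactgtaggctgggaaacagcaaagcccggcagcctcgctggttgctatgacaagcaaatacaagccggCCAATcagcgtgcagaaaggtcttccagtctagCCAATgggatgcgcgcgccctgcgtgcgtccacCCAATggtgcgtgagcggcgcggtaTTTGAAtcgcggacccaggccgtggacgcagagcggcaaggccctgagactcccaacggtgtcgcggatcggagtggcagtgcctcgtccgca
Pttg1: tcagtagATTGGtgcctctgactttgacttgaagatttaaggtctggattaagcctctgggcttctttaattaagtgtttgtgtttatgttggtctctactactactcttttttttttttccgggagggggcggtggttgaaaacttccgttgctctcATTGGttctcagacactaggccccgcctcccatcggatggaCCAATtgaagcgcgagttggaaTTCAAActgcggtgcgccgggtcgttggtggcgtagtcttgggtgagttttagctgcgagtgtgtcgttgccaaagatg
Mcm5: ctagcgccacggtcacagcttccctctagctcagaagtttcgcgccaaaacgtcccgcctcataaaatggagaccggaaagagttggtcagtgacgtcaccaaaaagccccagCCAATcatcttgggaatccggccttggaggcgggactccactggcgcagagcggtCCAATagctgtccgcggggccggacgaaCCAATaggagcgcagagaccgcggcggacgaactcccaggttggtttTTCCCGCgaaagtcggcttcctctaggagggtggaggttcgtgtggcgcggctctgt
Mcm7: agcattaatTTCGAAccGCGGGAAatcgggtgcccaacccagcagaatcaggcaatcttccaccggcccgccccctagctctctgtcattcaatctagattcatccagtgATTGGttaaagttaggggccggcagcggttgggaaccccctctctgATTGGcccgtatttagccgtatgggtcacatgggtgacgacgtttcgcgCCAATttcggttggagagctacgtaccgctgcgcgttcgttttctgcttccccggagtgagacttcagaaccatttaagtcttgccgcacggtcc
Cdkn1a: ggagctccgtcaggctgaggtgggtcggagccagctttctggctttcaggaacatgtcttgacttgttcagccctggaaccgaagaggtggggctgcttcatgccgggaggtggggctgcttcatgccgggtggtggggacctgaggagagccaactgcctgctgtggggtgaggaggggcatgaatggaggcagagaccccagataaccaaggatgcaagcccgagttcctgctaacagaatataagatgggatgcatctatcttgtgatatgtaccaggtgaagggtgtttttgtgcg
The Cdk1 window lies at chr20:19265043-19265342 on the plus strand, with CHR letters 72 and 16 bases before the start. That of Ccnb2, cyclin B2, lies at chr8:79981609-79981908 on the minus strand, and that of Pttg1, securin, at chr10:28406277-28406576 on the minus strand; their CHR letters nearest the start begin 43 and 29 bases before it. The Mcm5 window lies at chr19:13488563-13488862 on the plus strand, with an E2F match 7 bases before the start, the Mcm7 window at chr12:22163129-22163428 on the minus strand, with one 233 bases before it, and the Cdkn1a window at chr20:7150682-7150981 on the plus strand. A match of letters is a description and not a bound site, and no match says only that these letters are absent from the window.

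The first comparison set the epithelial against the fibroblastic line, both grown alone. In the epithelial line the replication genes were higher without exception: all 6 measured MCM helicase subunits, the clamp Pcna and the licensing inhibitor geminin (Gmnn) rose by 0.84 to 2.08 on the log2 scale relative to the fibroblastic line. Of the mitotic genes the largest rises were those of Cdkn3 (7.91-fold), Pttg1 (4.95-fold) and Ube2c (4.77-fold). The CDK inhibitor genes Cdkn2a (6.5-fold) and Cdkn2b (2.30-fold) were the exception and were higher in the fibroblastic line. A gene was called changed at an adjusted p under 0.05 in limma's moderated test, adjusted by Benjamini and Hochberg over all 14217 genes, and 20 of the 43 were called, 18 higher and 2 lower. The background was large, since 37.4% of all genes were called between these lines, 20.9% higher and 16.6% lower. The median difference of the 43 genes was 1.38, against 0.11 over all genes, and 40 of the 43 differences were positive. Arrays of the groups did not overlap for 12 genes higher in the epithelial line, a share near the 26.0% of all genes, and for 3 higher in the fibroblastic line, where the share of all genes was 19.2%.

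Among the replication genes the groups parted cleanly. Mcm7 read 12.09, 11.27 and 11.72 on the epithelial arrays and 9.33, 9.20, 10.25 and 9.68 on the fibroblastic arrays. Pcna, which holds the polymerases on DNA, read 12.77, 12.42 and 12.81 against 10.97, 11.02, 11.56 and 11.16. For both genes the lowest epithelial array was well above the highest fibroblastic one. The differences were 2.08 for Mcm7 (limma adjusted p = 0.000988) and 1.49 ± 0.19 (SE) for Pcna (adjusted p = 0.000579). Mcm4 read 10.10, 9.62 and 10.14 against 8.10, 8.28, 9.32 and 8.60, a difference of 1.38 ± 0.30 (adjusted p = 0.00809), with no overlap either. Of the 4 nucleotide supply genes, thymidylate synthase (Tyms) was called, at 1.56 ± 0.425 (SE) (adjusted p = 0.0213), and its arrays overlapped at the margin, with 7.17 on epithelial array 2 and 7.21 on fibroblastic array 3. Rrm1, Tk1 and Dut differed by 0.45, 1.41 and 0.95 and were not called.

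The mitotic genes had differences as large, but on a wider spread. Cdkn3 read 12.37, 11.47 and 11.94 on the epithelial arrays, above every fibroblastic value given earlier, and its difference was 2.98 ± 0.71 (adjusted p = 0.0121). Securin, which guards sister chromatid cohesion until anaphase, read 12.07, 10.73 and 11.44 against 9.25, 7.74, 10.60 and 8.83, a difference of 2.31 ± 0.62 (adjusted p = 0.0207). Its lowest epithelial array lay just above fibroblastic array 3. Ube2c read 12.29, 10.99 and 11.49 in the epithelial line and overlapped with that same array, with a difference of 2.25 (adjusted p = 0.0333). Ccna2 had a difference of 2.13, of the same size, and missed the threshold (adjusted p = 0.0698), with 9.93, 9.06 and 10.40 against a fibroblastic maximum of 9.73. The survivin gene Birc5, the topoisomerase Top2a, the kinase Aurka, the motor Kif11 and the spindle protein Nusap1 were the other mitotic genes called higher. Mki67, the antigen most used to count cycling cells, was not among them: it read 10.39, 9.39 and 9.81 against 8.70, 7.77, 10.22 and 8.72, with fibroblastic array 3 inside the epithelial range, and its difference was 1.01 ± 0.53 (adjusted p = 0.171). Cdk1 itself differed by 0.39 (adjusted p = 0.665).

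The regulators of G1 split by gene. Ccnd1 read 12.86, 12.81 and 12.86 in the epithelial line, nearly the same on each array, against 11.11, 12.16, 10.68 and 12.19, and was higher by 1.31 (adjusted p = 0.0269). Cyclin E1 (Ccne1) read 8.63, 7.84 and 8.07 against 8.43, 7.16, 8.77 and 7.37, with overlap, and differed by 0.24 ± 0.42 (adjusted p = 0.682). Cyclin E2 (Ccne2) read 8.02, 7.73 and 8.21 against 7.31, 6.31, 8.35 and 7.21 and differed by 0.69 ± 0.42 (adjusted p = 0.236); its second, dimmer probe set had the opposite sign, at -0.20. Cdkn2a, whose transcripts encode a CDK inhibitor and, in another reading frame, the p53 activator ARF, read 4.89, 4.76 and 4.60 in the epithelial line and 7.45, 7.83, 7.37 and 7.14 in the fibroblastic line. Its values in the epithelial line lay near the low end of the scale, and no array of one line came close to those of the other, and the difference was -2.70 ± 0.19 (adjusted p = 1.7e-05). Cdkn2b, its neighbour, read 5.87, 5.90 and 5.86 against 6.94, 6.74, 7.63 and 7.01, a difference of -1.2 ± 0.22 (adjusted p = 0.00331). Cdkn1a, the p53 target p21, read 11.01, 10.60 and 11.01 against 11.68, 11.54, 11.22 and 11.14: the groups did not overlap, yet the difference of -0.52 ± 0.19 was not called (adjusted p = 0.0639).

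**Figure D3:**
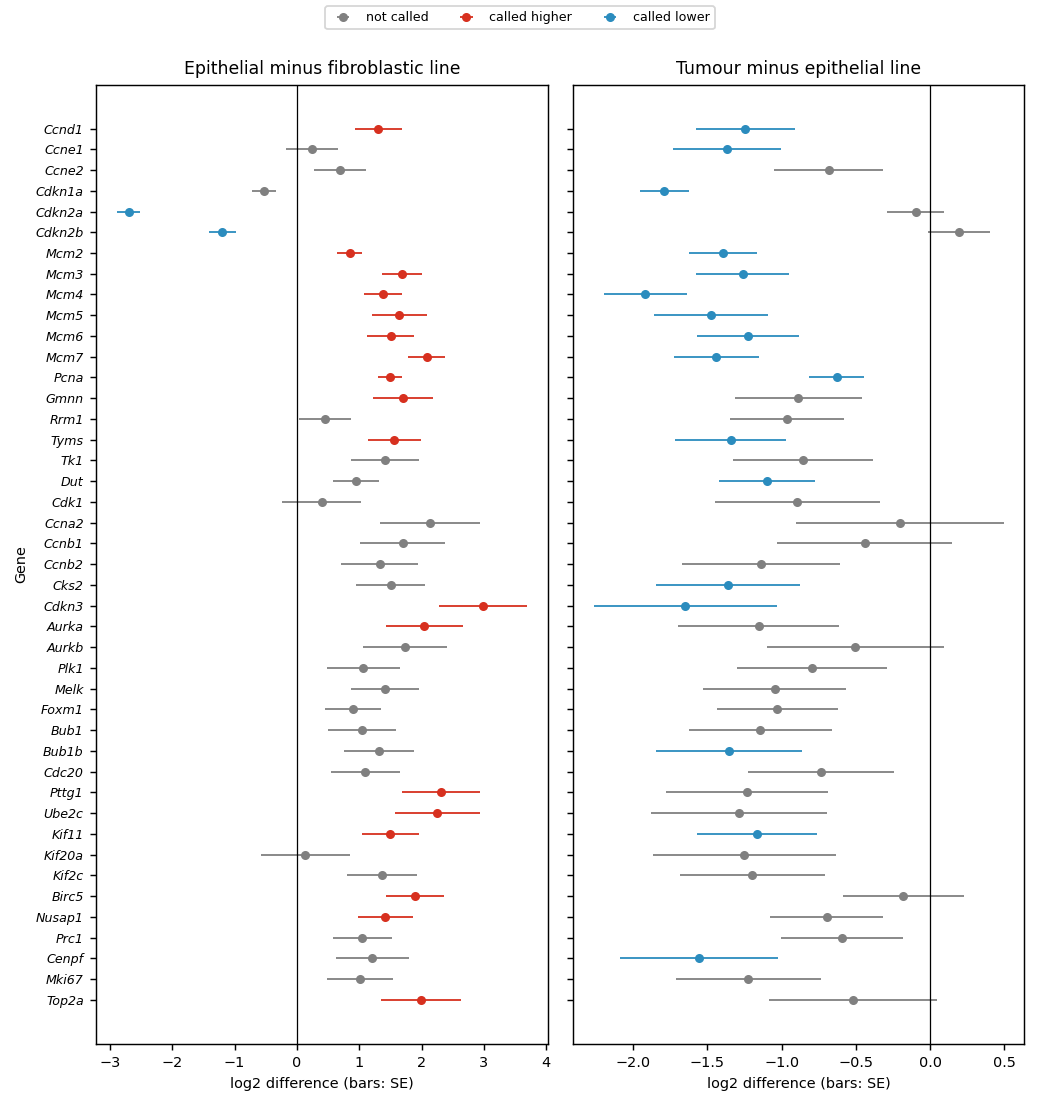
Each point is the log2 difference of a gene between 2 groups with its SE (horizontal bars), for the epithelial minus the fibroblastic line (left) and the tumours minus the epithelial line (right), coloured where the adjusted p is under 0.05. The MCM genes carry short bars and are called on both sides, while the mitotic genes lie as far from 0 with longer bars, and Cdkn2a is lowest on the left but near 0 on the right.

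The number of calls changed with which fibroblastic arrays were included, and it is given without the share of all genes called under each setting. Without fibroblastic arrays 2 and 4 (the low pair) 9 of the 43 genes were called, and without arrays 1 and 3 (the high pair) 41 were. The pairs are named by their means over the 43 genes, but array 1 (8.37) was close to array 4 (8.17), with array 3 (9.54) far above. Without only fibroblastic array 3, 38 were called. The median of the 43 differences was 0.778 without arrays 2 and 4 and 1.867 without arrays 1 and 3, against 0.105 and 0.129 over all genes. Without epithelial array 1 the count was 8, without epithelial array 3 it was 9, and it was 13 and 12 without fibroblastic arrays 1 and 4. With the actin covariate 13 were called, 11 higher and 2 lower. Cdkn2a, Cdkn2b, Mcm3, Mcm4, Mcm7, Pcna and Cdkn3 were called under each of these settings and each alternative tried.

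Other cell cycle genes were counted beside the 43, from a list of 194 that leaves them out and was also chosen with earlier results known. The list had 166 measured genes. Of these 64 (38.6%) were called higher and 5 (3.01%) lower in the epithelial line, against 20.9% and 16.6% of all genes, with a median of 0.90. By role, 18 of 28 further replication fork genes were called higher and 0 lower, and 15 of 54 spindle and kinetochore genes were called higher and 1 lower. The largest rises were those of the p53 target Perp (6.85), the kinase Plk2 (2.84) and Myc (2.81), and the largest falls those of the growth arrest gene Gas6 (-3.19), the kinetochore gene Zwint (-2.08) and the pocket protein gene Rbl2 (-1.40). Zwint was the 1 spindle and kinetochore gene called lower. Perp also encodes a protein of epithelial cell junctions.

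The second comparison set the tumours against the epithelial line. Replication genes were lower in the tumours: the 6 MCM subunits fell by 1.23 to 1.92 and Pcna by 0.63 on the log2 scale. Ccnd1, Ccne1 and Cdkn1a were lower as well, by 1.24, 1.37 and 1.79. Of the mitotic genes 5 were called, all lower, and Ccna2 and Birc5 differed by -0.20 and -0.18. Of the 43 genes 17 were called, all of them lower, where 52.1% of all genes were called (33.2% of all genes lower and 18.9% higher). The median of the 43 differences was -1.14, against -0.17 over all genes, and 42 of the 43 were negative. For 33 of the 43 genes (76.7%) all 4 tumours lay below all 3 epithelial arrays, as they did for 37.0% of all genes.

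For the replication genes named here all 4 tumours lay below the line. Mcm4 read 7.80, 8.07, 8.44 and 7.85 in tumours 1 to 4, more than 1 below its lowest value in the epithelial line, and fell by 1.92 (adjusted p = 0.000353). Mcm5 read 7.94, 8.03, 8.27 and 7.95 against 9.74, 9.24 and 9.59 and fell by 1.48 (adjusted p = 0.00905). Mcm2 read 8.23, 8.34, 9.13 and 8.54 against 10.23, 9.92 and 9.71 and fell by 1.39 (adjusted p = 0.000648). Tumour 3 had the highest value of the 4 for each of these genes, as it did for 37 of the 43, where it was highest for 26.4% of all genes. Of the 4 nucleotide supply genes Tyms and the dUTPase gene Dut fell, by 1.34 (adjusted p = 0.0121) and 1.10 (adjusted p = 0.0157).

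On the probe sets used, the mitotic genes all had negative differences, of which 5 passed the test, where 33.2% of all genes were called lower. A second probe set of Nusap1 differed by 0.02, against -0.70 for the one used. Cdkn3 read 10.07, 10.16, 10.43 and 10.43 in the tumours and fell by 1.65 (adjusted p = 0.0437). The kinetochore gene Cenpf read 8.20, 7.95, 8.52 and 7.51 against 9.93, 9.36 and 9.52 and fell by 1.56 (adjusted p = 0.0307). In both, every tumour lay below every epithelial array. Bub1b, Cks2 and Kif11 were the other mitotic genes called lower. Ccna2, which was not called, read 9.47, 9.35, 9.97 and 9.58 in the tumours, within its epithelial range of 9.06 to 10.40, a difference of -0.20 with a 95% interval from -1.75 to 1.34 (adjusted p = 0.825). Birc5 read 7.47, 7.18, 7.62 and 7.31 against 7.79, 7.22 and 7.73, a difference of -0.18 with an interval from -1.08 to 0.72 (adjusted p = 0.731). The fitted fall of Cdkn3 lies within the interval of Ccna2. Mki67 read 8.44, 8.61, 9.28 and 8.23, below each of its epithelial values, and its difference of -1.22 ± 0.49 narrowly missed the threshold (adjusted p = 0.0565).

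Among the G1 regulators Cdkn1a changed most. It read 9.0, 9.11, 9.24 and 8.97 in the tumours, close to each other and more than 1 below any array of the lines grown alone, and fell by 1.79 ± 0.165 (SE) (adjusted p = 1.81e-05). It was also the 1 gene of the 43 for which all 4 tumours lay below all 9 cultured arrays, a pattern that 15.2% of all genes showed. Ccnd1 read 11.29, 11.87, 11.70 and 11.54 and fell by 1.24 (adjusted p = 0.0107), and Ccne1 read 6.70, 6.68, 6.93 and 6.94 and fell by 1.37 (adjusted p = 0.00962). Neither overlapped with the epithelial line. Ccne2 read 7.12, 7.17, 7.52 and 7.39, with a difference of -0.68 (adjusted p = 0.142). Cdkn2a was near the low end of the scale in tumours too, at 4.59, 5.06, 4.45 and 4.50, a difference of -0.10 ± 0.19 (adjusted p = 0.688). Cdkn2b was the 1 gene with a positive difference, 0.20 ± 0.21 (adjusted p = 0.46), at 6.0, 6.46, 5.84 and 6.0; tumour 2 was the high value.

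RNA of fibroblastic cells, hepatocytes, macrophages and other cells was part of the tumour arrays, and its part in these differences was not tested. Fibroblastic markers averaged 11.11 to 11.49 in the tumours, against 5.24 to 5.34 in the epithelial line. Tumour 2, whose hepatocyte markers were near the level of the cultures, had a mean over the 43 genes of 8.52, within the 8.45 to 8.85 of the other tumours, and taken as the lone tumour it gave a median difference of -1.21. Under that setting, in which a lone array is assumed to vary like the others, 4 genes were called: Cdkn1a, Mcm2, Mcm4 and Mcm7. The error in this comparison was estimated over all 3 groups, the fibroblastic arrays included. Counts under the alternatives are given without the share of all genes called under each setting, and are not read as a trait of the 43. With only the tumours and the epithelial line in the fit, 34 of the 43 genes were called lower, and without fibroblastic array 3, 33 were; without epithelial array 1 the count was 8, and without epithelial array 3 it was 11. A further quantile normalization left 9 called and centring on the median left 11. Centring moved the median over all genes from -0.17 to 0.03, and the median of the 43 genes to -0.95. Ccnd1, Ccne1, Cdkn1a, Mcm2, Mcm3, Mcm4, Mcm5 and Mcm7 were called under all the other alternatives tried.

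Among the 166 other cell cycle genes 96 (57.8%) were called lower in the tumours, against 33.2% of all genes. The 2 called higher (1.2%, against 18.9% of all genes) were Gas6 (1.07) and Rbl2 (0.60). Gas6 read 9.31 to 10.09 in the tumours, between the epithelial (7.93 to 9.04) and the fibroblastic line (11.30 to 12.36). Rbl2 read 7.59 to 8.17, against 7.26 to 7.63 and 8.46 to 9.16. The part of fibroblastic RNA in these rises was not tested. By role, 14 of 17 origin licensing genes, 20 of 28 fork genes and 24 of 54 spindle and kinetochore genes were called lower. The largest falls were those of separase, Espl1 (-2.46), the midzone motor Kif23 (-2.36) and the kinetochore gene Cenpt (-2.10). Of 17 p53 targets and growth arrest genes 11 were called lower and 1 higher.

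**Figure D4:**
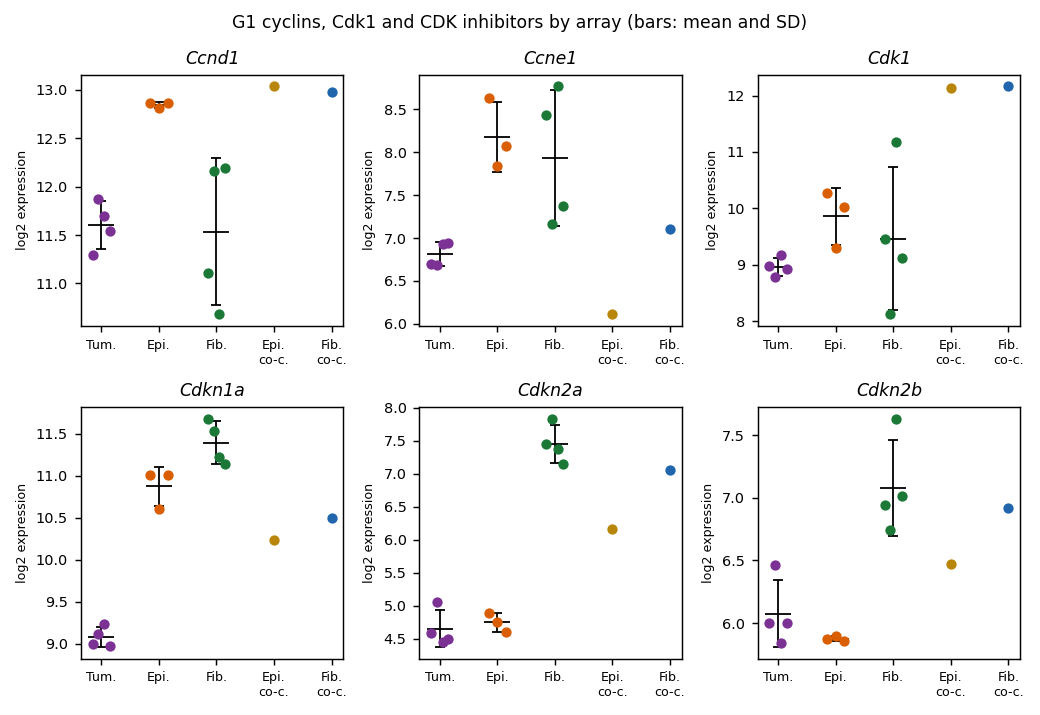
Log2 expression of 6 regulators on every array (points), with the mean and SD of groups with several arrays (horizontal lines and bars); the vertical axes differ between panels. Cdkn2a is low in tumours and epithelial cells and high in fibroblastic cells, Cdkn1a is lowest in all 4 tumours, and Cdk1 is higher on both co-culture arrays than on any other array.

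Set against the fibroblastic line, the tumours had less of all 3 CDK inhibitors and more of a few mitotic genes. Cdkn2a fell by 2.80 (adjusted p = 5.06e-07), Cdkn1a by 2.31 (adjusted p = 6.47e-07) and Cdkn2b by 1.01 (adjusted p = 0.00121), and no tumour value reached the fibroblastic range for any of them. All 4 tumours lay below all 4 fibroblastic arrays for these 3 genes and Ccne1, as for 32.0% of all genes, and above them for Birc5 and Pcna, as for 26.2%. Ccne1 and Mcm2 were the other 2 genes called lower, at -1.12 (adjusted p = 0.014) and -0.55 (adjusted p = 0.0415). Ccna2, Birc5, Top2a and Pcna were called higher, by 1.93, 1.72, 1.47 and 0.86. Together 9 of the 43 genes were called, 4 higher and 5 lower, a smaller share than the 60.9% of all genes called in this comparison (27.3% higher and 33.5% lower). The median of the 43 differences was 0.22, against -0.07 over all genes, with 28 positive and 15 negative.

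The mitotic genes differed in whether fibroblastic array 3 overlapped with the tumours. Birc5, an inhibitor of apoptosis that also serves at the centromere, read 7.18 to 7.62 in the tumours and 5.44, 4.76, 6.96 and 5.55 in the fibroblastic line, with no overlap (adjusted p = 0.00262). Ccna2 (adjusted p = 0.024) overlapped through fibroblastic array 3 at 9.73. Top2a read 8.96, 9.16, 9.58 and 9.15 against 7.36, 6.45, 9.55 and 7.61, and array 3 again lay among the tumours (adjusted p = 0.0319). Pcna, at 11.79, 12.01, 12.36 and 11.98, was above every fibroblastic array (adjusted p = 0.00147). Mki67 differed by -0.21 ± 0.45 (adjusted p = 0.703), Ccnd1 by 0.06 ± 0.31 (adjusted p = 0.873) and Ccne2 by 0.01 ± 0.34 (adjusted p = 0.985). Of the other genes below 0, Kif20a (-1.12), Mcm4 (-0.54), Rrm1 (-0.52), Cdk1 (-0.50) and Cenpf (-0.35) were the lowest, and none of these 5 was called. Here too the counts under the alternatives come without the share of all genes called under each setting. A further quantile normalization or centring on the median gave 15 calls, 11 higher and 4 lower, and array weights 17, 13 higher and 4 lower, so the split between higher and lower changed with the scaling; centring moved the median over all genes from -0.07 to 0.12. Without fibroblastic array 3, 20 genes were called, and without the high pair 24, of which 20 were higher; without the low pair 11 were called, of which 8 were lower. With tumour 2 alone Cdkn1a and Cdkn2a were called. Ccne1, Cdkn1a, Cdkn2a, Cdkn2b, Pcna and Birc5 were called under every alternative apart from tumour 2 alone and, for Ccne1, the loss of the high pair.

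Of the 166 other cell cycle genes 17 (10.2%) were called higher and 33 (19.9%) lower than in the fibroblastic line, smaller shares than the 27.3% and 33.5% of all genes. Perp (6.48), Myc (2.51) and the transcription factor gene E2f2 (2.05) led the rises, and Gadd45b (-2.75), Zwint (-2.57) and Mdm2 (-2.23) the falls. Of the 17 p53 targets and growth arrest genes, to which Perp, Gadd45b and Mdm2 belong, 3 were called higher and 7 lower.

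Each co-culture comparison rests on 1 array, which limma assumes to vary like the arrays of the lines grown alone, and both arrays held RNA of both lines. Values on these arrays therefore cannot be read as those of 1 cell type. For the co-cultures as well, counts under the alternatives come without the share of all genes called under each setting. The array labelled epithelial had lower replication genes and a higher Cdkn2a than the epithelial line alone: Mcm2 fell by 1.57 (adjusted p = 0.0169), Pcna fell by 1.2 (adjusted p = 0.0468) and Cdkn2a rose by 1.41 (adjusted p = 0.0244). These were the 3 of 43 genes called, where 7.24% of all genes were called (4.87% higher and 2.37% lower), a like share. The array labelled fibroblastic had 0 genes of the 43 called by limma at an adjusted p under 0.05, where 8.41% of all genes were (4.78% higher and 3.63% lower); at an unadjusted p under 0.05 there were 10. Its median difference from the fibroblastic line was nevertheless 1.13, against 0.03 over all genes, and 39 of the 43 were positive.

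On the epithelial co-culture array the 8 replication genes were all below their mean in the epithelial line, by 0.15 to 1.59. Mcm2 read 8.38 there, below even the fibroblastic line (8.88 to 9.46), and Pcna read 11.47, inside the range of the fibroblastic line. Mcm4, at 8.67, and Mcm7, at 10.40, differed by -1.28 and -1.29 and were not called. None of the mitotic genes was called on that array. Apart from Cdk1 (2.28), the mitotic kinases, cyclins and their partners differed by -0.71 (Foxm1) to 0.02 (Aurkb), the checkpoint and anaphase genes by -0.66 (Ube2c) to -0.10 (Pttg1), and the 7 spindle genes by -0.32 to 0.42. Mki67 read 10.15 (a difference of 0.29 ± 0.80, adjusted p = 0.901). Cdkn2a read 6.16, between the 4.60 to 4.89 of the epithelial and the 7.14 to 7.83 of the fibroblastic line, beside a fibroblastic marker mean of 9.96 on the same array, and the part of fibroblastic RNA in this rise was not tested. Cdkn2b read 6.47 (0.60 ± 0.33, adjusted p = 0.342) and Cdkn1a 10.24 (-0.63 ± 0.29, adjusted p = 0.248). Ccne2 read 7.43 (-0.55 ± 0.64, adjusted p = 0.707). The call of Pcna was lost under 10 of the alternatives, leaving out any single epithelial array among them, and that of Cdkn2a without epithelial array 2 or 3; Mcm2 was called under every alternative. With the actin covariate 12 genes were called, 2 higher (Cdkn2a and Cdk1) and 10 lower, the 6 MCM subunits among them.

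The fibroblastic co-culture array had mitotic genes above the mean of the fibroblastic line, with wide errors. Cdkn3 read 11.54 (a difference of 2.6 ± 1.04, adjusted p = 0.201), Pttg1 11.67 (2.57 ± 0.91, adjusted p = 0.148) and Mki67 10.53 (1.68 ± 0.77, adjusted p = 0.268). Each lay above all 4 fibroblastic arrays, as did 19 of the 43 genes and 30.7% of all genes on this co-culture array. In the epithelial line alone Cdkn3, Pttg1 and Mki67 read 11.47 to 12.37, 10.73 to 12.07 and 9.39 to 10.39. Epithelial markers averaged 11.64 on this co-culture array, and the part of epithelial RNA in the result was not tested. Without fibroblastic array 3 (the highest) 8 genes were called, all higher, among them Cdk1, Cdkn3, Pttg1 and Mki67, and without the high pair 19 were; with the actin covariate the median difference was -0.14 and Ccnd1 alone was called. The 4 negative differences were those of Ccne1 (-0.83 ± 0.61, adjusted p = 0.514) and the 3 CDK inhibitors, Cdkn1a (-0.90 ± 0.28, adjusted p = 0.103), Cdkn2a (-0.385, adjusted p = 0.503) and Cdkn2b (-0.155, adjusted p = 0.844). Ccne2 differed by 0.73 (adjusted p = 0.575).

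For 4 of the 43 genes both co-culture arrays lay outside the range of the lines grown alone, on the same side. Both co-culture arrays lay above all 7 arrays of the lines grown alone for Ccnd1 and Cdk1 (4.65% of the 43), against 5.8% of all genes. They lay below all 7 for Ccne1 and Cdkn1a (4.65%), against 8.85% of all genes. On neither side was the share of the 43 above that of all genes. Cdk1 stood out furthest. It read 12.14 and 12.17 in co-culture, against 10.27, 9.29 and 10.02 in the epithelial line and 9.45, 8.12, 11.17 and 9.12 in the fibroblastic line. The lower co-culture value was 0.97 above the highest of the lines alone, a margin that 106 of the 14217 genes exceeded. In the limma fit Cdk1 was not called on either side, at 2.28 (adjusted p = 0.211, and from 0.0212 to 0.348 over the alternatives) and 2.71 ± 0.93 (adjusted p = 0.138, and from 0.00675 to 0.311). With only the epithelial line and its co-culture array in the fit, the epithelial difference was called (adjusted p = 0.0421), and without fibroblastic array 3 the fibroblastic one was (3.28, adjusted p = 0.016). The cyclins that partner Cdk1 had no such excess: Ccnb1 read 9.44 and 9.69, Ccnb2 10.06 and 10.30, and Ccna2 9.22 and 9.71, each inside the range of the lines alone.

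The other 3, Ccnd1, Ccne1 and Cdkn1a, lay outside the range of the lines alone by small margins. Ccnd1 read 13.04 and 12.98, above the 12.86 of the highest epithelial array by 0.12, and differed by 0.20 ± 0.57 (adjusted p = 0.907) and 1.44 ± 0.55 (adjusted p = 0.18) from the 2 lines. Ccne1 read 6.11 and 7.10, the latter just under the lowest array of the lines alone, with differences of -2.07 ± 0.63 (adjusted p = 0.0949) and, as given, -0.83. Cdkn1a read 10.24 and 10.50, just under the lowest epithelial value of 10.60. Of the 166 other cell cycle genes, both co-culture arrays lay above all arrays of the lines alone for Cdkn1b and Zwint (1.2%, against 5.8% of all genes). They lay below them for 11 (6.63%, against 8.85% of all genes), so both shares were under those of all genes. Cyclin D2 (Ccnd2) was among the 11, at 7.28 and 7.55 against 8.40 to 11.66. Cyclin D2 fell by 3.73 relative to the fibroblastic line (adjusted p = 0.0357), and Zwint rose by 3.15 relative to the epithelial line (adjusted p = 0.000551), the largest called change of the 166 on either side but for Perp (5.13) and cyclin D2.

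Responses to co-culture were also set against each other, as the change on the epithelial array minus the change on the fibroblastic array. Of 14217 genes 1198 were called, and among the 43 these were Pcna (-1.90 ± 0.40, adjusted p = 0.0246) and Cdkn2a (1.79 ± 0.40, adjusted p = 0.0292). The lines differ in these genes when grown alone, by 1.49 and -2.70, and the 2 co-culture arrays were close to each other over all genes (r = 0.983), so this difference largely restates that between the lines.

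After Cdk1 had been seen to stand apart, its neighbours on chromosome 20 were looked up by gene order in RefSeq (GRCr8), since Zwint lies close by. From Zwint to Reep3 there are 21 measured genes beside Cdk1. For 8 of them (Zwint, Cisd1, Ube2d1, Tfam, Ccdc6, Ank3, Rhobtb1 and Jmjd1c) both co-culture arrays lay above all arrays of the lines alone, against 2 of the 39 further genes within 30 measured genes of Cdk1 on either side and 5.8% of all genes. The bounds of that stretch were chosen from these values, so the count is a description. The mitochondrial transcription factor gene Tfam, 8 measured genes away, had the widest margin of these, 1.45: it read 10.68 and 11.06 in co-culture against 9.23, 9.13 and 9.10 in the epithelial and 8.47, 8.84, 8.84 and 8.88 in the fibroblastic line. It was called on both sides, at 1.53 (adjusted p = 0.00619) and 2.30 (adjusted p = 0.000731).

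**Figure D5:**
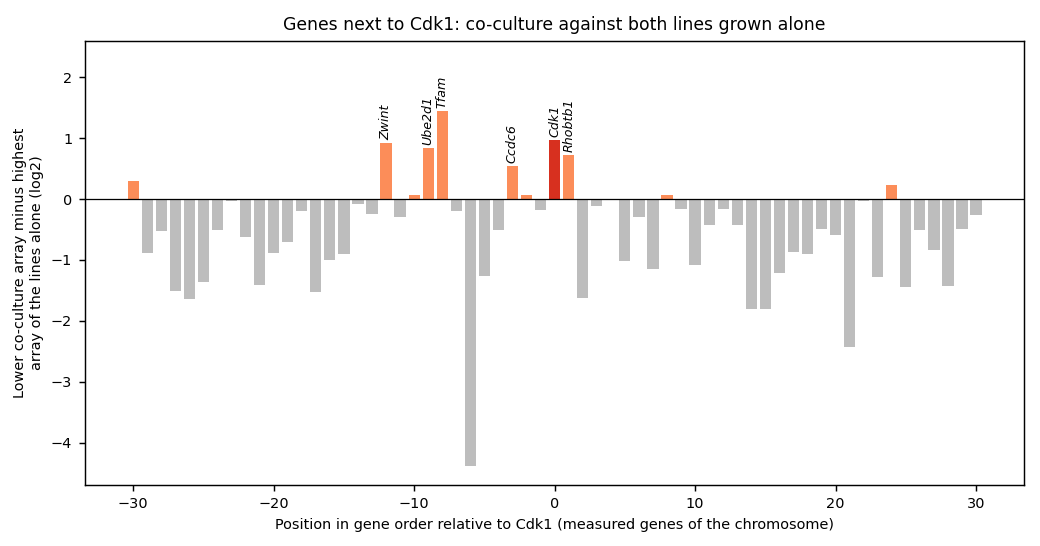
Bars give, for the 30 measured genes on each side of Cdk1 in gene order, the lower of the 2 co-culture values minus the highest value of the 7 arrays of the lines grown alone (log2); bars above 0 are coloured, and Cdk1 is dark red. Most genes lie below 0, and the tallest bars, Tfam, Cdk1, Zwint, Ube2d1 and Rhobtb1, lie within 12 measured genes of Cdk1.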

How the data were processed

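Total RNA of 4 tumour and 9 cell culture samples was labelled and hybridised to Affymetrix rat arrays, 1 array per sample. The deposited values are log2 expression per probe set, made by the authors with RMA (robust multi-array average: background correction, quantile normalization and summary of probes) per the submitters' processing notes, with no version named there. Of 31099 probe sets, 57 are controls, 20826 name 1 gene, 436 name several and 9780 none. Symbols were updated by Entrez ID or accession through RefSeq (GRCr8), and each of 14217 genes was given by its probe set with the highest mean over all arrays. Array medians lay between 6.15 and 6.25; as arrays, the number of samples limits the precision.

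Group means were fitted with limma 3.58.1 in R 4.3.3 (lmFit, eBayes): 9 arrays (both lines and both co-culture arrays) for the lines and the co-cultures, and 11 arrays (tumours and both lines) for the tumours. Values are log2 differences ± SE, and limma's p-values were adjusted by Benjamini and Hochberg over all genes, with calls under 0.05. The fits were tested on simulated data. Full statistics are given for the 5 called genes with the largest difference in each comparison, for Mki67, Ccnd1, Ccne1, Ccne2, Cdkn1a, Cdkn2a and Cdkn2b, and for genes whose sign differs from most; other genes named serve as examples of their role. The members and lists were chosen with earlier results of these data known. Alternatives were other sets of arrays in the fit, array weights, trended and robust eBayes, a low-level filter, median centring, quantile normalization, a replicate block, the mean of all probe sets and leaving out each array. Replicate numbers were not taken as pairs, since correlations of same-numbered deviations ran from -0.148 to 0.143. Of the sample columns, 0 were unused.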

Additional observations from a re-analysis of the deposited data

Results flagged for a closer look

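Within groups of 4 arrays, the cell cycle genes were searched for an array far from the others (gap over range above 0.829, which chance gives in about 1 in 20 groups). This was met in 2 of 86 groups. Mcm7 read 10.78 in tumour 3, against 10.04 to 10.13 in the other tumours (gap over range 0.875). Tk1, thymidine kinase, read 8.12 in tumour 2, against 8.51 to 8.56 in the others (0.884).

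For 2 genes the change on the epithelial co-culture array differed from that on the fibroblastic one by limma's test of the difference over all genes. That of Cdkn2a was 1.79 higher (adjusted p = 0.0292) and that of Pcna was -1.90, lower (adjusted p = 0.0246), with 1 co-culture array on each side. The lines grown alone differed by -2.70 in Cdkn2a and by 1.49 in Pcna (epithelial minus fibroblastic), and the 2 co-culture arrays correlated at r = 0.983, so these values largely restate the difference between the lines and are not read as a difference in response.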

How the results depend on the processing

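Counts are of the 43 genes called, without the share of all genes called under the same setting. They describe how calls depend on the setting and are not read as a trait of the 43. For the epithelial against the fibroblastic line (20), leaving out single arrays gave 8 to 38; leaving out fibroblastic arrays 2 and 4 gave 9, leaving out arrays 1 and 3 gave 41, and the actin covariate gave 13. For the tumours against the epithelial line (17), the fit of only the groups compared gave 34, quantile normalization 9, centring 11, single arrays left out 8 to 33, without fibroblastic arrays 2 and 4 29, without 1 and 3 34, and tumour 2 alone 4. For the tumours against the fibroblastic line (9), quantile normalization and centring each gave 15, array weights 17, single arrays left out 6 to 20, without fibroblastic arrays 1 and 3 24, and tumour 2 alone 2. On the epithelial co-culture array (3), only the groups compared gave 5, single arrays left out 1 to 3, without fibroblastic arrays 1 and 3 6, and the actin covariate 12. On the fibroblastic co-culture array (0), the fit of all 13 arrays gave 1, single arrays left out 0 to 8, without fibroblastic arrays 2 and 4 2, without 1 and 3 19, and the actin covariate 1. The cause of these changes was not tested. In tumours against the fibroblastic line, a difference that was not called turned into a call of the opposite sign for Cks2, from 0.14 to -0.75 without fibroblastic arrays 2 and 4, and for Ccnd1 from 0.06 to -0.58 without arrays 1 and 3. With the replicate number as a block the counts were 22, 17, 9, 3 and 0 in the same order; the numbers do not pair the samples. The pairs of fibroblastic arrays, tumour 2 alone and the actin covariate were alternatives chosen after seeing the data. With 1 co-culture array on each side, no spread of that condition was measured.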
